A study of Homo sapiens with 6 samples.

Results

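The endothelin genes are described here in cardiomyocytes given alcohol, with or without losartan. The 5 genes are EDN1, which encodes the ligand endothelin-1, EDNRA and EDNRB, which encode its A and B receptors, and ECE1 and ECE2, which encode the enzymes that cut the precursor into the active peptide. They were chosen by name, with earlier results of these data known. All 5 were found by symbol among the 21134 genes of the series table. RNA was sequenced from hiPSC-CMs, that is, cardiomyocytes differentiated in culture from pluripotent stem cells. The sample labels name the line as H9, which is an established line of human embryonic stem cells, and all 6 libraries share it. The control group (n = 2) received no treatment. The alcohol group (n = 2) received 100 mM alcohol for 24 h. The co-treated group (n = 2) received 100 mM alcohol together with 1 μM losartan, a blocker of the angiotensin II type 1 receptor, for 24 h. No group received losartan alone, so only the comparison of co-treated with alcohol bears on losartan, and in the presence of alcohol, while co-treated against control differs in both agents. As a model, these are cultured cells of 1 line, without the surrounding tissue of the heart. The study modelled alcoholic cardiomyopathy, and the comparisons asked what alcohol changed and what losartan changed on top of it.

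Endothelin-1 is a small peptide that is made as a long precursor, trimmed by furin-type proteases and then cut to its active form by the endothelin-converting enzymes. In blood vessels it comes mainly from endothelial cells, and it constricts the vessel through the A receptor on smooth muscle, while the B receptor on endothelium releases relaxing factors and removes the peptide from the circulation. In cardiomyocytes the A receptor predominates, couples to Gq and phospholipase C, and is known for effects on contraction and hypertrophic growth, and angiotensin II is among the known inducers of EDN1.

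The 3 endothelin ligands are encoded by separate genes, and reads of one can only be told from another where the sequences differ. The stretch of 63 coding bases for the 21 residues of the mature peptide is shown for this reason, 5′ to 3′, from GENCODE 29 transcripts. Capitals mark the bases unlike EDN1.
EDN1: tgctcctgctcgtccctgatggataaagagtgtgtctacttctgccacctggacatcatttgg
EDN2: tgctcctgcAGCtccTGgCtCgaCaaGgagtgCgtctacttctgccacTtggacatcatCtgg
EDN3: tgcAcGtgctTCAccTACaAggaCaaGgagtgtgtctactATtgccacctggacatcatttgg
EDN2 differed from EDN1 at 12 of the 63 bases and 2 of the 21 residues, and EDN3 at 13 bases and 6 residues. The stretch is part of an EDN1 transcript of 2033 bases, and the rest was not compared. The expected counts of EDN1 were whole numbers in every library.

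The EDN1 promoter is shown because several factors known to act on EDN1 were measured in the same libraries. The 250 bases before 1 of the 3 EDN1 starts searched here lie at chr6:12290111-12290360 on the plus strand of GRCh38.p14.
EDN1 promoter: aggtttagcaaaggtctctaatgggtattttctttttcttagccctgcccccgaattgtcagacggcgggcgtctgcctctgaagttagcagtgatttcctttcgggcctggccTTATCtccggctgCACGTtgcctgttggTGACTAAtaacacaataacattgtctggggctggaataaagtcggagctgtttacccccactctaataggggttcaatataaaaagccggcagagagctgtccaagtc
Capitals mark, in order, a match on the minus strand to the GATA core GATAA, a match on the minus strand to the hypoxia-inducible factor core ACGTG, and a match on the plus strand to TGACTAA, a variant of the AP-1 motif. Both strands were searched, no match overlapped another, and the full AP-1 motif TGANTCA had no match in this window. The window of another of these starts, chr6:12287769-12288018, also held matches to the hypoxia-inducible factor core and is not shown. The remaining window, chr6:12289764-12290013, held no match to any motif searched. Of 35116 promoter windows of the same length, 20.4% held the GATA core, 18.5% the hypoxia-inducible factor core, 1.62% TGACTAA and 6.57% TGANTCA. The motifs were picked for factors known to act on EDN1, so the shares of windows are no test of the EDN1 matches. A match is a description of these letters and not a site of binding.

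The libraries were of nearly equal depth, with expected counts summing to between 4898287 and 5051448 reads and between 18610 and 18810 genes above 0. The 12 cardiomyocyte markers all had more than 3 counts in every library. FPKM is the estimated reads scaled by transcript length and by the depth of the library. Their summed FPKM was 27036 and 26406 in the controls, 26348 and 19840 after alcohol, and 22668 and 24755 after co-treatment. Every alcohol-exposed library was below both controls, the first alcohol library only slightly. The markers were not alike. MYL7, TNNT2, TNNI3 and ACTN2 had lower mean FPKM than control in both other groups. TNNI1, MYH7, MYL2, RYR2 and PLN had higher ones, and the rest were mixed. Pearson's r of log2 CPM between the 2 replicates was between 0.975 and 0.978 in the 3 groups. Of 14926 genes tested, 10 passed an adjusted p of 0.05 between alcohol and control, 54 between co-treated and control, and 2 between co-treated and alcohol (edgeR quasi-likelihood test with Benjamini-Hochberg adjustment).

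In every library most of the endothelin RNA was that of the A receptor and of ECE1. ECE1 was at 31.4 and 32.9 FPKM in the controls, 25.8 and 29.5 after alcohol, and 27.4 and 27.1 after co-treatment. EDNRA was at 27.4 and 25.2 FPKM in the controls, 29.4 and 25.6 after alcohol, and 26.1 and 28.6 after co-treatment. Both lay between the 84.8 and 88.8 percentiles of the genes detected in their library, and their order switched in alcohol replicate 1 and co-treated replicate 2, so the order of ECE1 and EDNRA was within the spread between libraries. EDN1 was far below them, between 2.92 and 5.36 FPKM, at the 38.1 to 50.3 percentiles. EDNRB was between 1.32 and 3.67 FPKM, at the 26.9 to 41.3 percentiles, and exceeded EDN1 in co-treated replicate 1 alone, where EDN1 was at 3.59 FPKM and the EDNRB value rested on a shorter transcript length, described with its FPKM. ECE2 had the lowest FPKM in 5 of the 6 libraries, between 0.41 and 1.78. The summed FPKM of the 5 genes was between 61.6 and 67.1.

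**Figure D1:**
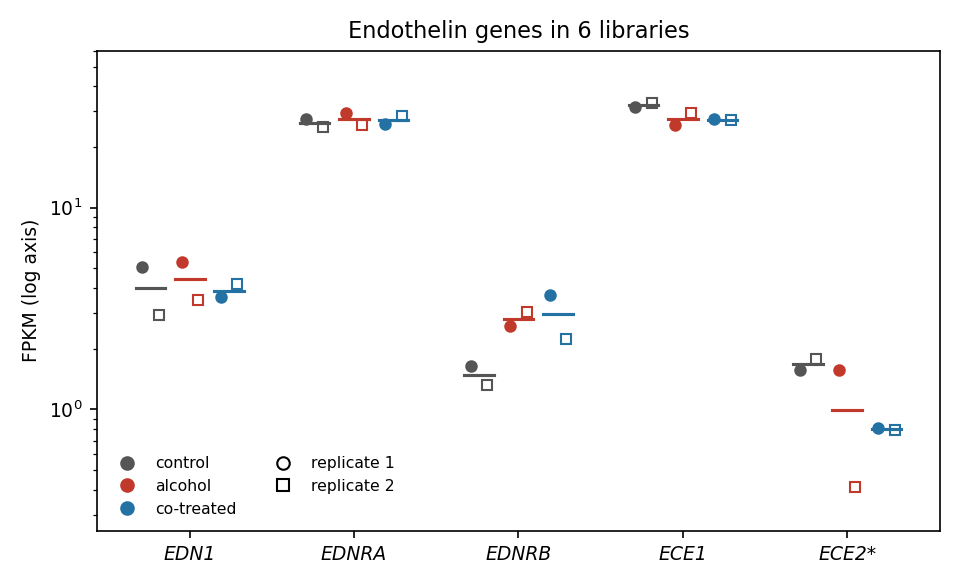
FPKM (log axis) of the 5 endothelin genes in each library, with control in grey, alcohol in red and co-treated in blue. Filled circles are replicate 1, open squares replicate 2 and bars the mean of both, and the asterisk on ECE2 marks a gene too low to be tested. ECE1 and EDNRA sit near 30 FPKM in all groups, and both control points of EDNRB, 1.64 and 1.32, lie below the 4 others.

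The ligand gene EDN1 showed no difference that exceeded its spread. Its expected counts were 54 and 31 in the controls, 57 and 36 after alcohol, and 37 and 44 after co-treatment. Replicate 1 was the higher one in the control and alcohol groups, and the 3 groups overlapped. The mean FPKM was 4.00 ± 1.53 (SD, n = 2) in the controls, 4.42 ± 1.33 after alcohol and 3.88 ± 0.403 after co-treatment. In the edgeR test, the log2 fold change was 0.11 (SE 0.34, 95% interval -0.62 to 0.84, adjusted p = 0.943) for alcohol against control. It was -0.20 (SE 0.34, 95% interval -0.94 to 0.53, adjusted p = 0.962) for co-treated against alcohol, and -0.09 (SE 0.34, 95% interval -0.84 to 0.65, adjusted p = 0.943) for co-treated against control. EDN1 had fewer than 60 counts in each library, and these data do not tell a change inside these intervals from none. None of the 4 members that passed the expression filter was called in any comparison, where 0.0670% of all genes tested were called for alcohol against control, 0.0134% for co-treated against alcohol and 0.362% for co-treated against control. The other ligand genes were near the limit of detection. EDN2 had 4 and 2 counts in the controls, 2 and 1 after alcohol, and 1 and 0 after co-treatment, and EDN3 had at most 1 count in any library, so neither was tested. The floor of 3 counts corresponded to between 0.594 and 0.612 CPM.

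The A receptor gene EDNRA was the most even of the 4 genes tested. Its counts were 567 and 533 in the controls, 621 and 519 after alcohol, and 537 and 588 after co-treatment, so the groups overlapped. The log2 fold change was 0.03 (SE 0.13, 95% interval -0.25 to 0.31, adjusted p = 0.956) for alcohol against control, and -0.02 (SE 0.13, 95% interval -0.30 to 0.26, adjusted p = 0.991) for co-treated against alcohol. For co-treated against control it was 0.01 (SE 0.13, 95% interval -0.27 to 0.29, adjusted p = 0.987). The 3 intervals leave room for a change of about 0.3 on the log2 scale in either direction. They rest on 2 libraries a group and do not exclude a larger change.

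The B receptor gene EDNRB had the widest difference between groups among the 4, and it did not pass the test over all genes. Its counts were 36 and 29 in the controls, 57 and 65 after alcohol, and 62 and 49 after co-treatment. All 4 alcohol-exposed libraries were above both controls, and the alcohol and co-treated libraries overlapped each other. Such a lack of overlap was common: 22.0% of all genes tested were higher without overlap after alcohol, and 21.6% after co-treatment. The log2 fold change against control was 0.88 (SE 0.27, 95% interval 0.29 to 1.48, unadjusted p = 0.00653, edgeR adjusted p = 0.244) after alcohol, a fold of 1.85. After co-treatment it was 0.75 (SE 0.28, 95% interval 0.15 to 1.34, unadjusted p = 0.0181, edgeR adjusted p = 0.277), a fold of 1.68. These contrasts share the 2 control libraries and are not independent. An unadjusted p under 0.05 was reached by 11.0% of all genes after alcohol and by 12.6% after co-treatment. Between co-treated and alcohol the log2 fold change was -0.14 (SE 0.26, 95% interval -0.69 to 0.42, edgeR adjusted p = 0.969). With all 4 alcohol-exposed libraries against control, a comparison added after the values were seen, it was 0.82 (SE 0.24, 95% interval 0.29 to 1.34, unadjusted p = 0.00525, edgeR adjusted p = 0.147), where 0.556% of all genes were called, 13.5% had an unadjusted p under 0.05 and 11.8% were higher without overlap. An exact permutation of 2 libraries against 2 cannot go below a two-sided p of 0.333.

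**Figure D2:**
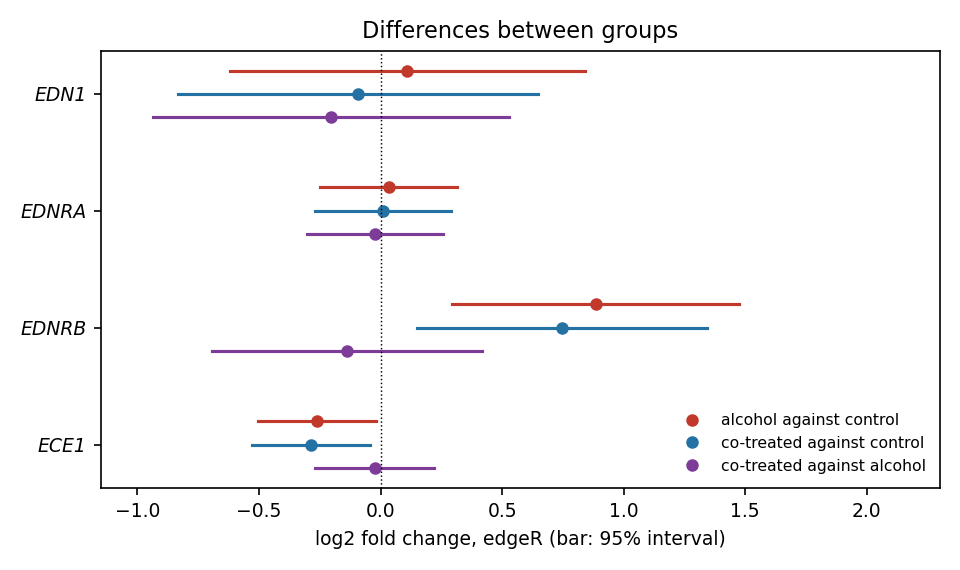
Log2 fold changes of the 4 endothelin genes that passed the expression filter, with 95% intervals from edgeR, for alcohol against control (red), co-treated against control (blue) and co-treated against alcohol (purple). The EDNRB points against control, 0.88 and 0.75, and the ECE1 points, -0.26 and -0.29, have intervals beside 0 that are not adjusted for the number of genes, and none of the 12 values passed the adjusted test.

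The FPKM of EDNRB gave the same picture with 1 exception. It was 1.64 and 1.32 in the controls, 2.59 and 3.03 after alcohol, and 3.67 and 2.24 after co-treatment. The highest value, that of co-treated replicate 1, rested on a deposited transcript length of 3434 bases, while 4 of the other libraries had 4320 bases and alcohol replicate 2 had 4338. Scaled to 4320 bases, its FPKM was 2.92, below that of alcohol replicate 2 and below that of EDN1 in the same library. EDNRB has a short transcript of 1571 bases beside others of 4282 to 4471 bases in GENCODE 29, and the deposited length is a mean weighted by the estimated use of each. With 62 counts, how reads were shared among these transcripts in that library was not tested.

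The ratio of the receptors was described per library, with no test. EDNRA exceeded EDNRB in FPKM by 16.7 and 19.1 times in the controls, by 11.3 and 8.44 times after alcohol, and by 7.12 and 12.8 times after co-treatment. The mean ratio was 17.9 ± 1.68 (SD, n = 2) in the controls, 9.89 ± 2.05 after alcohol and 9.94 ± 3.98 after co-treatment. Taken from expected counts, which carry no length, the means were 17.1 ± 1.86, 9.44 ± 2.05 and 10.3 ± 2.36. The A receptor was the more abundant transcript in all 6 libraries. The ratio was lower in the 4 alcohol-exposed libraries than in both controls, where EDNRB differed without overlap and EDNRA overlapped.

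**Figure D3:**
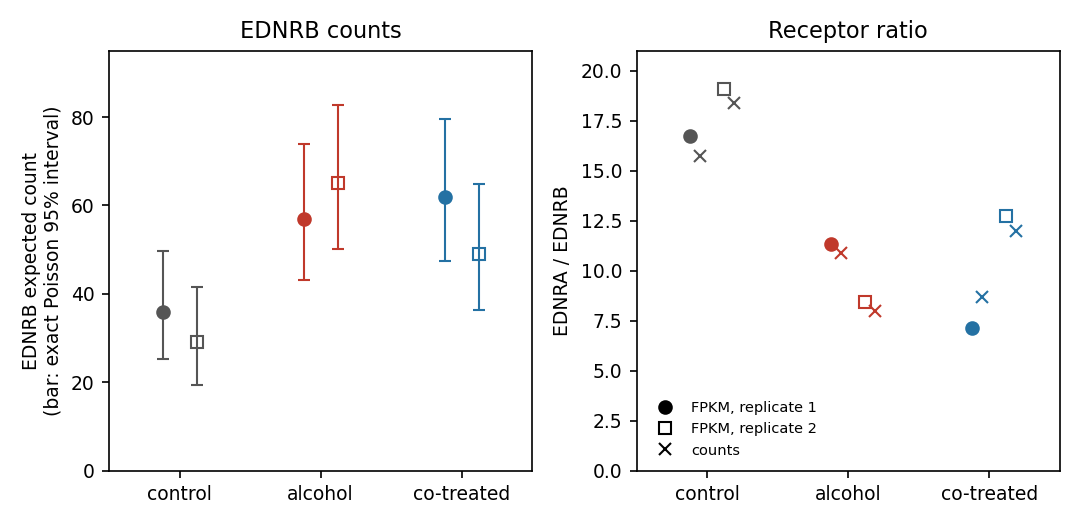
EDNRB expected counts with exact Poisson 95% intervals, which cover counting error only (left), and the ratio of EDNRA to EDNRB in FPKM and in expected counts (right), per library. The control counts of 36 and 29 lie below the 4 others, which span 49 to 65, and the ratio lies above 15 in both controls and under 13 in the 4 others.

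Markers of other cell types were measured beside the receptors, since both receptors are also made outside cardiomyocytes. In bulk RNA, fewer cells of a type and less RNA per cell cannot be told apart. The summed FPKM of 10 endothelial markers was 8.39 and 7.05 in the controls, 8.79 and 9.67 after alcohol, and 10.3 and 11.8 after co-treatment, and between 6 and 8 of them had more than 3 counts in a library. This sum was ordered like EDNRB between control and the other groups, but the markers were not alike. KDR, a growth factor receptor of endothelium and of cardiac progenitors, gave between 3.70 and 7.70 FPKM of it. Its log2 fold changes against control were 0.57 (edgeR adjusted p = 0.235) and 0.86 (edgeR adjusted p = 0.0502). The mean FPKM of TEK was 1.585 in the controls, 1.185 after alcohol and 1.25 after co-treatment. ESAM and VWF also had lower means than control in both other groups. KDR, CDH5, EMCN and ERG had higher ones, and PECAM1, TIE1 and CLDN5 were mixed. The defining endothelial genes were low: PECAM1 was between 0.44 and 0.76 FPKM, CDH5 between 0.20 and 0.78, and CLDN5 was at 0 in 5 of 6 libraries. The 5 listed neural crest and glial markers summed to between 25.9 and 30.1 FPKM, with 2 or 3 of them above 3 counts, and SOX10 had at most 3 counts. The 6 smooth muscle and pericyte markers were all detected, and their sum was 1930 and 1694 in the controls, 1455 and 726 after alcohol, and 995 and 1039 after co-treatment. Nearly all of this sum was ACTA2, TAGLN and CNN1, and not every marker followed it. In the order control, alcohol and co-treated, the mean FPKM of PDGFRB was 1.455, 1.305 and 1.45. That of NOTCH3 was 2.70, 2.71 and 2.10, and that of MYH11 was 4.555, 2.80 and 3.05. ACTA2, smooth muscle actin, which immature cardiomyocytes also express, fell by 1.25 on the log2 scale after co-treatment against control (edgeR adjusted p = 0.0203), and its value after alcohol was -1.03 (edgeR adjusted p = 0.0797). The call was lost without co-treated replicate 1 (edgeR adjusted p = 0.157), without co-treated replicate 2 (edgeR adjusted p = 0.349), without an expression filter (edgeR adjusted p = 0.0530) and with limma on FPKM (adjusted p = 0.117 and 0.129). The 8 fibroblast markers summed to 300 and 277 FPKM in the controls, 328 and 311 after alcohol, and 364 and 294 after co-treatment, where replicate 2 lay within the control range. Most of this sum was COL1A1 and COL1A2. These 2, DCN and PDGFRA had higher means than control in both other groups, POSTN and THY1 had lower ones, and LUM and TCF21 were mixed. The part of these markers in the EDNRB and EDNRA values was not tested.

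The converting enzyme gene ECE1 was lower in all 4 alcohol-exposed libraries by a small step that did not pass the test over all genes. Its counts were 824 and 860 in the controls, 676 and 750 after alcohol, and 696 and 708 after co-treatment. The groups did not overlap with control, which was also true, in the lower direction, of 21.8% of all genes after alcohol and of 21.7% after co-treatment. The log2 fold change against control was -0.26 (SE 0.11, 95% interval -0.50 to -0.02, unadjusted p = 0.0371, edgeR adjusted p = 0.413) after alcohol. After co-treatment it was -0.29 (SE 0.11, 95% interval -0.53 to -0.04, unadjusted p = 0.0245, edgeR adjusted p = 0.307). Between co-treated and alcohol it was -0.02 (SE 0.11, 95% interval -0.27 to 0.22, edgeR adjusted p = 0.988). Over the 4 exposed libraries it was -0.27 (SE 0.10, unadjusted p = 0.0140, edgeR adjusted p = 0.224), a fold of 0.828, and 11.3% of all genes were lower without overlap there.

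The second converting enzyme gene, ECE2, could not be measured with confidence. It had 8 and 9 counts in the controls, 8 and 2 after alcohol, and 4 and 4 after co-treatment, and did not pass the expression filter. Without the filter, its log2 fold change was -0.75 (SE 0.75, edgeR adjusted p = 0.835) for alcohol against control and -1.09 (SE 0.78, edgeR adjusted p = 0.765) for co-treated against control. Its deposited length was 1027 bases in all 6 libraries, which is shorter than any of the transcripts that GENCODE 29 gives for the listed accessions of ECE2 or of its readthrough gene with EEF1AKMT4, 2667 to 3445 bases. The same row lists a transcript that RefSeq now assigns to EEF1AKMT4, a neighbouring methyltransferase gene. GENCODE 29 gives that transcript 1823 bases, also more than the deposited length. The reads of this row are thus uncertain as a measure of ECE2. The other members also share their place with other genes. The antisense gene EDNRB-AS1 was between 0.00 and 0.08 FPKM and ECE1-AS1 between 0.08 and 0.40 FPKM, far below EDNRB and ECE1, and whether strand was used in the counting is not given in the sources used here. On GRCh38, EDN1 lies at chr6:12230516-12297194, EDNRA at chr4:147481097-147544954, EDNRB at chr13:77895487-77975527, ECE1 at chr1:21217250-21345504 and ECE2 at chr3:184276022-184293031.

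The other genes of the endothelin pathway were followed by lists ordered by role. Of 65 genes named in these lists, 64 were in the series table and 57 passed the filter, and 0 of the 57 were called by edgeR in any of the 3 comparisons. An unadjusted p under 0.05 was reached by 5 of the 57 (8.77%, all genes 11.0%) for alcohol against control, 2 (3.51%, all genes 5.55%) for co-treated against alcohol and 6 (10.5%, all genes 12.6%) for co-treated against control. The median log2 fold changes of the 57 were 0.03, -0.02 and -0.01 in that order, beside -0.003, 0.002 and -0.002 over all genes. The shares were near or below the background. The target of losartan, the receptor gene AGTR1, had 0 counts in both controls, 1 and 0 after alcohol, and 0 and 2 after co-treatment, so it was at or under the floor in all libraries.

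**Figure D4:**
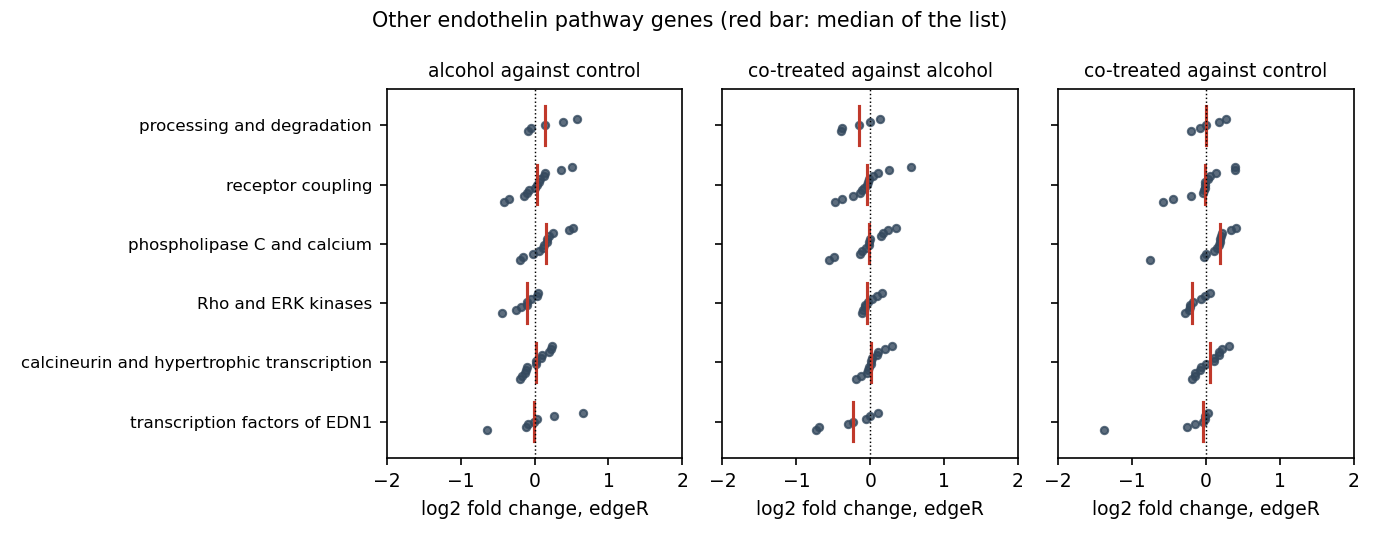
Log2 fold changes from edgeR of the other endothelin pathway genes tested, 1 point per gene, by list and comparison, with the median of each list as a red bar. Most points lie close to 0. The farthest from 0 for alcohol against control is JUN, at 0.65, and for co-treated against control KLF2, at -1.38, both in the lowest row.

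JUN, a subunit of AP-1 and a known activator of EDN1, had the lowest unadjusted p of the pathway genes in both comparisons that involve the alcohol group. Its counts were 1053 and 914 in the controls, 1377 and 1762 after alcohol, and 1033 and 904 after co-treatment. Both alcohol libraries were above the 4 others, which overlapped one another. Against the controls alone, 22.0% of all genes tested were higher without overlap after alcohol, and the share above all 4 others was not computed. The log2 fold change was 0.65 (SE 0.14, edgeR adjusted p = 0.113) for alcohol against control and -0.70 (SE 0.14, edgeR adjusted p = 0.423) for co-treated against alcohol, 2 contrasts that share the alcohol libraries. DESeq2, an alternative tool, called JUN in both, with adjusted p = 0.0126 and adjusted p = 0.0273, among 72 and 5 genes called. EDN1, whose promoter window holds the AP-1 variant shown above, had log2 fold changes of 0.11 and -0.20 in the same comparisons, with intervals that span 0. FOS, the usual partner of JUN, had between 8 and 19 counts, and HIF1A, the hypoxia-inducible factor subunit, had a log2 fold change of -0.01 (SE 0.13) after alcohol. GATA2 had between 4 and 11 counts and was not tested. KLF2, a shear-stress factor known to repress EDN1, had 40 and 37 counts in the controls, 19 and 31 after alcohol, and 20 and 10 after co-treatment. Its log2 fold change was -0.64 (SE 0.38, edgeR adjusted p = 0.585) after alcohol and -1.38 (SE 0.41, edgeR adjusted p = 0.172) for co-treated against control. SMAD3 had the highest value of this list between co-treated and alcohol, 0.11, where KLF2 was at -0.73, and FOXO1 had the highest against control, 0.03.

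Among the enzymes that mature or degrade endothelin, the extremes after alcohol were MMEL1, a neprilysin-like peptidase, at 0.58 (SE 0.37) and PCSK7, a proprotein convertase, at -0.09 (SE 0.18). Between co-treated and alcohol they were KEL, the Kell blood group peptidase, at 0.13 and MMEL1 at -0.39, and against control KEL at 0.27 and FURIN, the main precursor protease, at -0.20. CTSA, the lysosomal protease cathepsin A, which degrades endothelin-1, was named after its values were seen. Its counts were 303 and 293 in the controls, 391 and 398 after alcohol, and 331 and 275 after co-treatment, with log2 fold changes of 0.38 (edgeR adjusted p = 0.298) for alcohol against control and -0.38 (edgeR adjusted p = 0.836) for co-treated against alcohol. MME, the endopeptidase neprilysin, had between 1 and 8 counts.

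Among the genes that couple or silence the receptors, RGS5, a regulator of Gq signalling abundant in pericytes and heart, was the one called under an alternative. Its counts were 2305 and 2703 in the controls, 1925 and 2062 after alcohol, and 1405 and 1991 after co-treatment. The log2 fold change was -0.35 (SE 0.15, edgeR adjusted p = 0.422) after alcohol and -0.58 (SE 0.15, edgeR adjusted p = 0.123) for co-treated against control, where DESeq2 gave adjusted p = 0.0335. After alcohol the extremes were ARRB2, a β-arrestin, at 0.51 (SE 0.33) and RGS2, another regulator of Gq, at -0.41 (SE 0.35). Between co-treated and alcohol the same genes were the extremes, with RGS2 at 0.55 (SE 0.34) and ARRB2 at -0.48 (SE 0.33). RGS4 had the highest value for co-treated against control, 0.40 (SE 0.34).

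Downstream of the receptors, PLCB2, a phospholipase C, had 128 and 170 counts in the controls, 201 and 233 after alcohol, and 194 and 207 after co-treatment. Its log2 fold changes against control were 0.52 (SE 0.17, edgeR adjusted p = 0.254) and 0.41 (SE 0.17, edgeR adjusted p = 0.334). PLCB3, another isoform, was the lowest of this list in every comparison, at -0.20, -0.55 and -0.75 for alcohol against control, co-treated against alcohol and co-treated against control, and the last rested on 50 and 29 counts beside 73 and 58. PRKD1, protein kinase D1, was the highest between co-treated and alcohol at 0.34 (SE 0.21). Of the kinases, MAP2K1, which phosphorylates ERK, was at -0.44 (SE 0.17, edgeR adjusted p = 0.352) after alcohol, and at 0.16 between co-treated and alcohol, the lowest and the highest value of its list. MAPK3 was the highest of this list after alcohol, at 0.05. The list of calcineurin and hypertrophic transcription factors had 0 of 12 genes with an unadjusted p under 0.05 in each comparison, beside 11.0%, 5.55% and 12.6% of all genes in the order given above, so that with 12 genes this count was near the background. Its extremes were MEF2D at 0.24 and PPP3CA, the calcineurin catalytic subunit, at -0.20 after alcohol, NFATC1 at 0.29 and GATA4 at -0.19 between co-treated and alcohol, and NFATC1 at 0.31 and PPP3CA at -0.18 between co-treated and control.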

How the data were processed

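The authors sequenced RNA of 6 libraries and deposited, per library and gene, an expected count, a length and FPKM, and a series table of the same FPKM. The submitters' processing notes name HISAT2 2.0.4, Bowtie2 2.2.5, RSEM 1.2.12 and hg38, with no role given. Of the deposited expected counts, 33.9% were not whole and were rounded. The FPKM deposited by the authors equalled the series table for all genes.

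Groups followed the labels. One edgeR 4.0.16 quasi-likelihood fit (R 4.3.3, TMM factors, filterByExpr) held all 6 libraries with a mean per group, tested two-sided, and Benjamini-Hochberg adjustment covered all 14926 genes tested, with a threshold of 0.05. The SE was derived from the F statistic. The fit was tested on simulated data. Alternatives used DESeq2 1.42.0, limma 3.58.1 on log2(FPKM + 1) and log2(FPKM + 0.1), other filters and factors, a replicate block, and fewer libraries. Named pathway genes were the other ligands, the losartan target and, per list and comparison, the extremes; other genes of the pathway with a low p, markers, promoter factors (FOS, HIF1A, GATA2) and MME were named after values were seen. Some extremes of the kinase list are not reported here. The members and lists were chosen with earlier results of these data known. Sequences came from RefSeq (GRCh38.p14) and GENCODE 29. All 5 members matched these tables, and no protein sequence was used here.

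The totals given above limit genes of few counts, and Poisson intervals and floors cover counting error only. No label says that replicates came from separate cultures, so p-values measure the spread between these samples, which may be technical. The 2 replicates of each group differed by more than sampling noise, with a chi-square of 4.64 to 7.62 for each degree of freedom.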

Additional observations from a re-analysis of the deposited data

How the results depend on the processing

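No endothelin gene passed the adjusted threshold under any alternative run: 0 of 218 values, of which 196 kept their direction and 22 reversed. The range of adjusted p for EDNRB was 0.187 to 0.846 for alcohol against control and 0.240 to 0.711 for co-treated against control, and its log2 fold change stayed above 0, from 0.62 to 1.07 and from 0.56 to 0.92. DESeq2 gave no adjusted p for EDN1 and EDNRB after alcohol. ECE1 stayed below 0 against control, from -0.32 to -0.19 after alcohol and from -0.30 to -0.23 after co-treatment, with adjusted p between 0.343 and 0.904 and between 0.252 and 0.716. On the log2(FPKM + 1) and log2(FPKM + 0.1) scales, EDNRB reversed to 0.032 and 0.034 between co-treated and alcohol, where co-treated replicate 1 carries the shorter length, and EDN1 reversed to 0.0035 between co-treated and control on the log2(FPKM + 0.1) scale, for which the cause was not tested.

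Leaving out each library in turn, the log2 fold change for alcohol against control ran from -0.27 to 0.59 for EDN1, from -0.11 to 0.17 for EDNRA, from 0.74 to 1.07 for EDNRB and from -0.32 to -0.19 for ECE1. For co-treated against alcohol it ran from -0.51 to 0.17 for EDN1, from -0.17 to 0.12 for EDNRA, from -0.32 to 0.023 for EDNRB and from -0.092 to 0.032 for ECE1. For co-treated against control it ran from -0.45 to 0.37 for EDN1, from -0.054 to 0.070 for EDNRA, from 0.56 to 0.92 for EDNRB and from -0.30 to -0.27 for ECE1. For the 4 exposed libraries against control it ran from -0.34 to 0.48 for EDN1 and from -0.050 to 0.092 for EDNRA. The lone sample left in a group was assumed to vary like the other groups.

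Deviations of same-numbered libraries correlated at 0.114, -0.0162 and 0.0412, which with 2 replicates cannot decide if the numbers pair libraries. With the replicate block, EDNRB was at 0.89 after alcohol (edgeR adjusted p = 0.187), no member was called, and the number of genes called went from 10 to 48, from 2 to 5 and from 54 to 136 in the order alcohol against control, co-treated against alcohol, co-treated against control. DESeq2 called 72, 5 and 123, limma on log2(FPKM + 1) 0, 1 and 2, the fit without a filter 2, 1 and 15, and the fit of only the libraries compared 3, 4 and 158. A minimum of 10 counts in every library gave 26 and 0 in the first 2. Leaving out 1 library moved the numbers both ways. Alcohol against control had 1 without alcohol replicate 2, 3 without either co-treated replicate and 64 without control replicate 1. Co-treated against alcohol had 1 without co-treated replicate 2, and 5 to 7 without a control, alcohol replicate 2 or co-treated replicate 1. Co-treated against control had 4 and 2 without co-treated replicate 1 and 2, 29 without control replicate 2 and 151 without alcohol replicate 2. The 4 exposed libraries against control went from 83 to 6 without either co-treated replicate and 29 without control replicate 2, and to 407 without alcohol replicate 1. Without alcohol replicate 1 the first 3 had 220, 24 and 184, and JUN was then called for alcohol against control (adjusted p = 0.0155) and co-treated against alcohol (adjusted p = 0.0389). RGS5 was called for co-treated against control with the replicate block (adjusted p = 0.0453). The mean ratio of EDNRA to EDNRB moved by less than its SD with counts in place of FPKM.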

Other observations

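Genes were ranked by how closely their log2 CPM followed each endothelin gene over the 6 libraries. For EDN1 they were BTRC (Pearson's r = 0.997), ANKRD34C (r = 0.990) and STK38L (r = 0.985), among 14 genes over 0.95. Those of EDNRA were INPP4A (r = 0.978), CDIP1 (r = 0.973) and WTAP (r = 0.971), also of 14. EDNRB had VMAC (r = 0.993), LOC100288152 (r = 0.991) and EVL (r = 0.990), of 71 genes over 0.95, and ECE1 had RABIF (r = 0.989), BCL2L1 (r = 0.988) and CSRP2 (r = 0.984), of 35. With 6 points that share library and group, picked from 14926 genes, these values are descriptions with no test, and at the low counts of EDN1 and EDNRB counting error enters each of them.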
